A study of Mus musculus with 8 samples.

Results

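Bend2 encodes a germ cell protein with BEN domains, modules known for binding DNA and chromatin. The present account concerns 1 contrast, Bend2 knockout (KO) against wild-type (WT) leptotene spermatocytes, in 4 RNA libraries, 2 of each genotype, out of 8 libraries in the series. All came from 2-month-old C57BL/6 mice, and the cells were sorted by FACS. Another 4 libraries, 2 of WT and 2 of KO zygotene spermatocytes, entered the same statistical fit and served as other samples for each value. The labels name the genotypes only as Bend2 WT and Bend2 KO. They do not give the deleted part of the gene, nor do they say whether the libraries of a group came from separate mice, so p-values here reflect only the scatter among these libraries, which may be technical. A gene's value was the sum of TPM (a share of the library's transcripts that takes their length into account) over its annotated transcripts in a library, scaled between libraries. Of 27578 genes with a value in the series, 14066 reached a summed TPM of 1 in at least 2 leptotene libraries and were described here.

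Leptotene is the opening stage of meiotic prophase. After a last round of DNA replication, chromosomes condense along protein axes, the SPO11 machinery makes programmed DNA breaks, and homologues begin to search for each other. Zygotene, when homologues pair, follows, and then come pachytene, the 2 divisions and the spermatids that build the acrosome and tail. Much of the sperm's equipment, including its own glycolytic enzymes and the tail's axoneme, is made by genes that are known to be transcribed mainly from pachytene onwards.

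The libraries stand on aligned bases of 6.82 to 7.82 gigabases each, as implied by the ratio of coverage to FPKM, and replicates correlated at r = 0.804 (WT) and 0.808 (KO) on the log2 scale across genes. Annotated transcripts held 59.0% to 68.6% of each leptotene library's TPM. In each genotype, 1 of the 2 libraries had a low share of its TPM in unannotated single-exon transcripts (WT 1 12.5%, KO 2 14.4%) and the other a high share (WT 2 23.8%, KO 1 22.3%), so this difference did not follow the genotype. Axis and recombination genes that define leptotene and zygotene were present in both genotypes: the cohesin subunit Stag3 had 228 and 126 TPM in WT libraries 1 and 2 and 95.6 and 228 in KO libraries 1 and 2, and none of the 30 genes of that list passed the test. Of these 30 genes, 7 were apart lower, 2 apart higher and 2 held level, with a median of -0.32. The list's summed level overlapped between genotypes, at 1353 and 761.6 TPM in WT against 688.8 and 935.4 in KO. Markers of the labels' stage were thus present in both genotypes, though not shown to be equal. The libraries also held RNA of other cells. The summed level of 34 round spermatid markers was 5997 and 12300 TPM in WT against 2016 and 1137 in KO, and that of 27 pachytene markers 2397 and 3413 against 910.7 and 832.7. The protamine gene Prm1, a spermatid marker, had 1113 and 2259 TPM in WT and 187 and 92.3 in KO. Macrophage markers summed to 118.6 and 433.8 TPM against 19.93 and 17.43, with the receptor gene Csf1r listed at 0 in both KO libraries. Peritubular and stromal markers summed to 303.2 and 588.7 against 32.48 and 33.9, with Tagln listed at 0 in both KO libraries. Erythroid markers varied within both genotypes, at 105.7 and 2658 TPM in WT against 1066 and 3.715 in KO. Genes of the dissociation response, induced when tissue is taken apart, summed to 443.8 and 1870 against 618.9 and 620.7, and of 25 none passed, 10 were apart lower and 0 higher, with a median of -1.07. In the other direction, undifferentiated spermatogonial markers summed to 45.41 and 72.36 against 152.6 and 133.8, and differentiating ones to 473.6 and 405.6 against 689.4 and 537.1. The part of these cells and of the dissociation response in the results below was not tested, and in bulk RNA fewer cells of a type and less RNA per cell cannot be told apart. Bend2 was followed under its older symbol in the files. Gm15262 (chrX:161287456-161366252 in GRCm38), had 16.8 and 0 TPM in WT and 0.397 and 2.24 in KO, overlapping levels that are no check of the labels while the deleted part is not given.

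Most of what passed the test was lower in KO. With limma and Benjamini-Hochberg adjustment over all 14066 genes, 459 genes (3.26%) passed at an adjusted p under 0.05. Of these 51 were higher (0.363% of those tested) and 408 lower (2.9%), and the smallest called difference was 1.24 on the log2 scale. Of the 408 lower, 202 were listed at 0 in both KO libraries, and of the 51 higher 15 at 0 in both WT libraries. The number of genes with a value followed the genotype, at 20105 and 19923 in WT against 16699 and 17445 in KO. Its part in the lean to lower calls was not tested. At an unadjusted p under 0.05, 20.9% of genes passed. By a looser description that needs no spread estimate, both KO libraries above or both below the 2 WT libraries and a difference of at least 2-fold, 3917 genes differed (27.8%), 1147 higher (8.15%) and 2770 lower (19.7%). Such genes are called "apart" below. All 459 called genes had libraries that did not overlap. Each thus moved the same way in the pair of libraries with a low single-exon share and in the pair with a high one. The calls were made from these same values, which makes such separation likely, so it is no separate support. The calls rest on all 4 leptotene libraries: without either WT library or without KO library 1 no gene passed (1695, 1363 and 2165 did at an unadjusted p under 0.05), and without KO library 2 there were 18. Of the 459, only 192 still met the filter without either WT library, and 432 without either KO library. The WT zygotene libraries, which enter only the estimate of spread, matter too: without the first there were 134 calls and without the second 149.

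How the transcripts are summed decides many of these calls. The assembly that made the files names a transcript after its gene only where it matches the annotation, so a gene whose reads were assembled into altered transcripts loses named TPM. When unannotated transcripts within the exons of a gene were added, 544 of 17477 genes passed (3.11%). Among them were 209 of the 459 calls, 19 higher and 190 lower. A further count shows the other side: 126 of the 459 lay within 2-fold in that wider sum. Nipbl, the loader of cohesin onto chromosomes, is an example, with 66.5 and 36.6 annotated TPM in WT while both KO libraries list it at 0 (adjusted p = 0.0115, limma). In the wider sum its values were 87.1 and 45.4 in WT and 34.6 and 45.1 in KO, which do not overlap but differ by less than 2-fold (log2 difference -0.66), and the call is lost. Results below therefore say "in both sums" where a call passed either way. Of the 12 largest falls outside the spermatid, pachytene, S phase and histone lists, Nipbl, Serping1, Pmfbp1, Chl1 and Adamts5 did not pass in the wider sum and the other 7 did. Serping1, the C1 complement inhibitor, had 54.4 and 169 TPM in WT and 1.62 and 0.268 in KO, and 57.7 and 164 against 13.7 and 13.4 in the wider sum. The adhesion gene Chl1 had 29.3 and 40.8 in WT and was listed at 0 in both KO libraries, but its wider log2 difference, -2.13, did not pass.

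**Figure D1:**
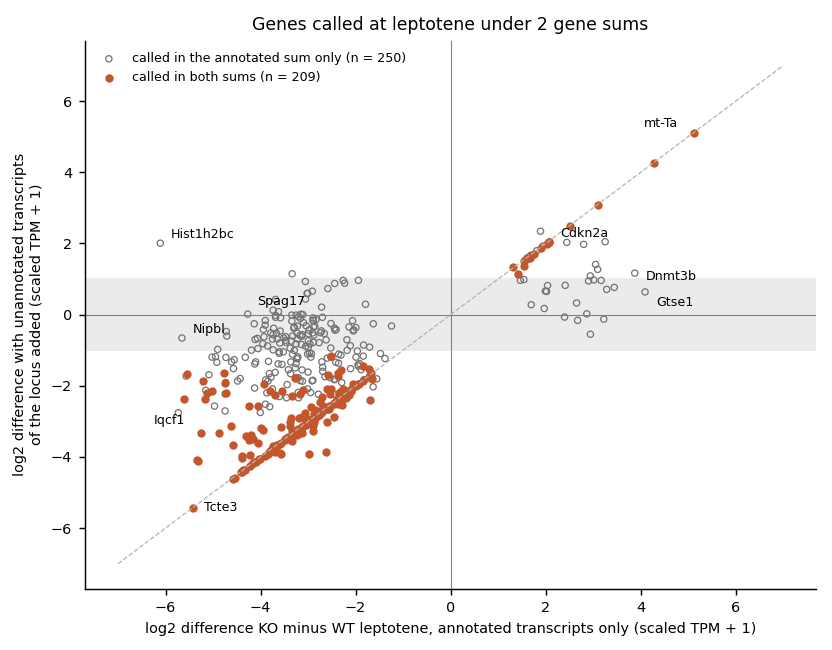
Each point is 1 of the 459 called genes, with the KO minus WT leptotene log2 difference from annotated transcripts on the x axis and from the sum that adds unannotated transcripts of the same locus on the y axis. The dashed line marks equal differences and the grey band differences under 2-fold in the wider sum, which hold 126 of the genes; filled points are the 209 genes called in both sums.

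Cholesterol synthesis stood among the groups with higher members. Of 22 genes tested, 3 rose (1 of them in both sums), none fell, 9 were apart higher and 1 apart lower, with a median log2 difference of 0.65 against -0.077 for all genes. Cells make cholesterol through the mevalonate pathway. SREBF2, the transcription factor that switches the pathway on, is held in the endoplasmic reticulum by INSIG1 when sterols are plentiful. Srebf2 had 19.6 and 25.2 in WT against 62.6 and 64.1 in KO (log2 difference 1.47 ± 0.27 SE, adjusted p = 0.0423, limma), although in the wider sum the difference was 0.96 and did not pass. Its KO libraries thus lay above both WT libraries, but the call was not kept in the wider sum.

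The rest of the pathway was mixed. Insig1 had 16.3 and 26.9 TPM in WT and 65.8 and 60.0 in KO, and Fdps, the synthase of farnesyl diphosphate, 16.6 and 27 in WT against 68.3 and 54.8 in KO. Both were apart and missed the threshold (adjusted p = 0.0645 and 0.084, limma), and Insig1 passed in the wider sum. Mvd, which decarboxylates mevalonate diphosphate, had no TPM listed in either WT library and 21.5 and 14.6 in KO (adjusted p = 0.0553). Hmgcs1, the synthase near the start of the pathway, went with neither group, at 3.53 and 8.3 in WT against 1.34 and 14.8 in KO. Pmvk, the phosphomevalonate kinase, was the 1 member apart in the lower direction, at 2.4 and 3.9 against 1.31 and 0, and had a wider difference of 0.14. The 2 spermatogonial marker lists were higher in KO alongside this pathway, with medians of 0.78 and 1.10.

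The promoters of 4 members show what the pathway's genes share in sequence and where they differ. They were picked after the values were seen: Srebf2, Insig1 and Mvd as members that were higher, and Hmgcs1 as a member that was not. Each run is a RefSeq window of GRCm38.p6, from 250 bases before the start to 50 after, written 5′ to 3′ on the gene's strand. The capitals mark a CCAAT box (CCAAT, or ATTGG where it lies on the other strand). In Hmgcs1 only, they also mark an exact core of a sterol response element (CACCCCAC), letters that SREBF2 is known to bind. Near matches were not searched, and the Srebf2 window holds caccccat, which differs from that core only in its last letter. The windows are chr15:82147019-82147318 (+) for Srebf2, chr5:28071162-28071461 (+) for Insig1, chr8:122443373-122443672 (-) for Mvd and chr13:119690101-119690400 (+) for Hmgcs1.
Srebf2: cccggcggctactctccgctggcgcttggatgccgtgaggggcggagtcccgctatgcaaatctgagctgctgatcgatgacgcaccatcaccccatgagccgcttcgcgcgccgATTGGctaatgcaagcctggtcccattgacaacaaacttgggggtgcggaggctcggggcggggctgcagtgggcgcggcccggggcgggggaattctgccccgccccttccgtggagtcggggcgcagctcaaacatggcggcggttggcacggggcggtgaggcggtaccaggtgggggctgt
Insig1: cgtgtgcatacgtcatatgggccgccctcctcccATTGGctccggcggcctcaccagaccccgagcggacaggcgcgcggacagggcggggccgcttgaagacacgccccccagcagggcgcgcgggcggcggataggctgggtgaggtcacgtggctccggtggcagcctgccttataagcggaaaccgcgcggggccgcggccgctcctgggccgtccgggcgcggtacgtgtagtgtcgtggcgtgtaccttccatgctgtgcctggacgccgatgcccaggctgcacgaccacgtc
Mvd: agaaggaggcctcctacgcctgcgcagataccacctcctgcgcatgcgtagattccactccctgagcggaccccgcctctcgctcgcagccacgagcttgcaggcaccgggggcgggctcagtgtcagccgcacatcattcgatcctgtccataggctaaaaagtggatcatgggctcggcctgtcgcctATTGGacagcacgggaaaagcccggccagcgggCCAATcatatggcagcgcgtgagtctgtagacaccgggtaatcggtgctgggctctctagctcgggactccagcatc
Hmgcs1: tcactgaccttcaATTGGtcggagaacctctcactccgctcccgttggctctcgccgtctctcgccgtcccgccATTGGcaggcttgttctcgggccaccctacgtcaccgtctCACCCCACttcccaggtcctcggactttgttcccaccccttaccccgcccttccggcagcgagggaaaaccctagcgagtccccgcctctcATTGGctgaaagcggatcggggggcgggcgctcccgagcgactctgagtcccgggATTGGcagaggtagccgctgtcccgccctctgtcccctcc
Hmgcs1, whose level did not separate the genotypes, carries 4 CCAAT boxes and the sterol element's exact core, more exact matches than the members that were higher. Over the pathway, 15 of 21 windows (71.4%, 16 genes matched by symbol) held a CCAAT box, against 38.4% of 11186 windows of tested genes and 37.4% of all 32851 windows of that length. The GC box (GGGCGG) was in 81.0% against 62.2% and 35.7%. The sterol element's core, a motif added after the values were seen, was in 9.52% against 2.95% and 2.87%, and the Y box CTGATTGGN, added likewise and overlapping CCAAT, in 19% against 5.94% and 4.09%. Both strands were searched, and a match describes letters, not binding.

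Several single genes were called higher in both sums, and most of those given here were chosen after their values were seen. Cdkn2a, the locus of the growth arrest proteins p16INK4a and p19ARF, had 10.2 and 12.7 TPM in WT and 63.6 and 41.3 in KO (2.08 ± 0.33 SE, adjusted p = 0.0313, limma). It was the 1 called gene of 11 CDK inhibitors and RB family members tested, whose median was -0.04. Cad, the enzyme of the first steps of pyrimidine synthesis, rose from 42 and 28.7 to 98.3 and 92.2 (adjusted p = 0.0444), and Cul7, a scaffold of ubiquitin ligases, from 14.5 and 14.4 to 46 and 41.9 (adjusted p = 0.0343). Both passed in both sums and, like all called genes, had non-overlapping libraries. Mcm2, a subunit of the replicative helicase, rose from 27.9 and 27.9 to 84.1 and 60.3 (adjusted p = 0.0496, limma). It was the 1 called gene among 33 S phase genes, of which 5 were apart higher (15.2%) and 0 lower. Of 38 genes of mitotic division none passed, 6 were apart higher (15.8%) and 2 lower. Among all genes 0.363% were called higher, 8.15% were apart higher and 19.7% apart lower. Histone cluster genes made up 9 of the 19 rises seen in both sums, and Hist1h3h, at 71.1 and 80.1 in WT against 380.0 and 273 in KO, was 1 of them. Reads can be split among near-identical histone copies, so single histone genes are uncertain. Snrpert, a relative of the spliceosomal gene Snrpe whose reads may be shared with it, rose from 8.59 and 7.76 to 32.7 and 25.7 TPM.

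Several groups leaned higher with few or no calls. Of 68 spliceosome genes, 1 rose (Snrpert), 12 were apart higher and 1 apart lower, with a median of 0.49. Among 35 aminoacyl tRNA synthetases, which load amino acids onto tRNAs, none passed the test, 5 were apart higher and 0 lower. Mars, the methionyl enzyme, had 33.7 and 29.9 TPM in WT and 79.4 and 63.6 in KO (log2 difference 1.14 ± 0.25 SE, adjusted p = 0.0623). Of 22 genes of serine and one-carbon metabolism, none passed, 5 were apart higher, 1 lower and 3 were held level, among them Mat2a at 108 and 77.1 in WT against 84.7 and 115 in KO. Spermatogonial markers were counted in the same way. Of 13 undifferentiated markers 1 rose, 6 were apart higher and 0 lower, and of 15 differentiating markers 1 rose, 8 were apart higher and 3 lower. The rises are Upp1 and Dnmt3b, in annotated transcripts only. Crabp1 had 11.4 and 17.1 TPM in WT and 70.8 and 38.7 in KO, Zbtb16 10.1 and 10.04 in WT against 28.9 and 39 in KO, and the stem cell factor receptor Kit 21 and 22.7 in WT against 43.4 and 49.8 in KO. These 3, chosen after their values were seen, had KO libraries above both WT libraries and did not pass. Other differentiating markers went the other way. The lowest log2 difference in that list was -1.78, and Dmrtb1, also a member, had -1.02 in annotated transcripts.

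Of the 12 largest rises in annotated transcripts, 1 also passed in the wider sum, mt-Ta. The others described here were higher in both KO libraries in that sum too, by less and without passing. Dnmt3b, a de novo DNA methyltransferase, had 0.333 and 0.893 TPM in WT and 24.6 and 20.3 in KO (adjusted p = 0.0219, limma), but the wider difference was 1.17 and did not pass. Mov10l1, a helicase of the piRNA pathway, rose from 24.5 and 21.1 to 88.9 and 98.4 (wider difference 0.66), and Ddx39b, an mRNA export helicase, from 25.5 and 28.1 to 99.4 and 129 (wider difference 0.82). Gtse1, a mitotic regulator, had 0 listed in WT and 14.9 and 17.4 in KO, while the wider sum gave 21.2 and 14.9 in WT against 23.2 and 34.4 in KO. Zfp518b, Polg2 and Mtfr2 were likewise listed at 0 in both WT libraries, and Morc1, Cyp11a1, Ftsj1, Rhbdf2 and Upp1 were near 0 there. All 8 had wider differences that did not pass. The mitochondrial tRNA gene mt-Ta was listed at 0 in WT leptotene against 33.5 and 34.7 in KO. At zygotene the order turned, with 35.3 and 30.8 in WT and 0 listed in KO. The piRNA list as a whole changed sign with the sum: its median over 29 genes was -0.40 in annotated transcripts and 0.35 in the wider sum.

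**Figure D2:**
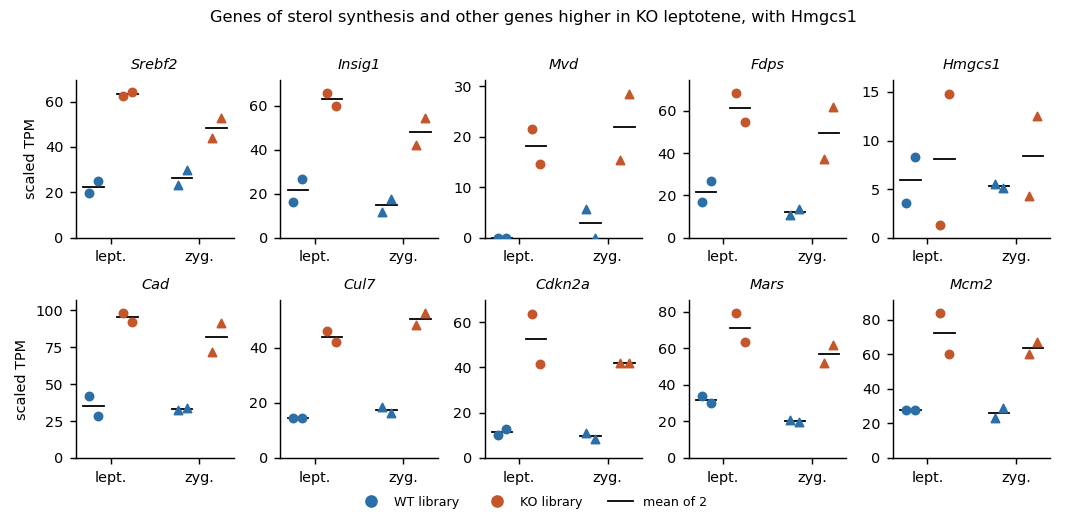
Scaled TPM, on an axis from 0, in each leptotene (circles) and zygotene (triangles) library, 1 panel per gene, with WT in blue, KO in orange and a bar at the mean of 2 libraries. In 9 of the 10 genes both KO leptotene libraries lie above both WT ones, and in Hmgcs1 they overlap.

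Among lower genes, the energy metabolism of sperm formed a group. Of 27 glycolysis genes tested, 3 fell, all in both sums, none rose, 11 were apart lower and 3 apart higher, with a median of -0.45. All 3 are the forms known from male germ cells. Ldhc, the sperm lactate dehydrogenase, had 268 and 308 TPM in WT and 54.8 and 25 in KO (-2.92 ± 0.53 SE, adjusted p = 0.0423, limma). Pgk2, the phosphoglycerate kinase of meiotic and later cells, fell from 83.4 and 135 to 14.1 and 6.63 (-3.32 ± 0.50 SE, adjusted p = 0.0282), and Ldhal6b, another lactate dehydrogenase, from 56.9 and 55.2 to 14 and 7.97 (adjusted p = 0.035). As in all called genes, no WT library overlapped a KO library in any of them. Ldhc and Pgk2 also belong to the pachytene marker list given above, whose sum was lower in KO, and the part of later cells in these falls was not tested. Gapdhs, the sperm glyceraldehyde phosphate dehydrogenase, had 224 and 465 against 93.6 and 64.1 and Pgam2, a phosphoglycerate mutase, 176 and 233 against 65.2 and 33.3, both apart and past no threshold (adjusted p = 0.0683 and 0.0768). The form of glucose phosphate isomerase used by all cells, Gpi1, overlapped between genotypes, at 85.8 and 167 in WT against 109 and 96.7 in KO. It does not stand for all enzymes outside the germ cell forms, since the lactate dehydrogenase Ldha had a log2 difference of -1.75. Gpi1 and Ldha were chosen after their values were seen. Other genes outside the list fell too. These were chosen after their values were seen. Sord, sorbitol dehydrogenase, fell from 199.8 and 345 to 61.1 and 35.8. Gk2, a glycerol kinase of the testis, fell from 49 and 51.4 to 12.3 and 6.45. Fabp9, which binds fatty acids and is a pachytene marker here, fell from 206 and 274 to 22.8 and 8.02.

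In 2 of these genes a motif that MYB proteins recognise lies near the start. MYBL1 is known to switch on many pachytene genes, and a core of MYB sites was searched as AACNGTTA on both strands, overlap with other motifs allowed. Ldhc and Pgam2 are the glycolysis genes, called or apart lower, with a match, which the capitals mark in RefSeq windows of GRCm38.p6, chr7:46861013-46861312 (+) for the first of 2 Ldhc windows and chr11:5803747-5804046 (-) for Pgam2.
Ldhc: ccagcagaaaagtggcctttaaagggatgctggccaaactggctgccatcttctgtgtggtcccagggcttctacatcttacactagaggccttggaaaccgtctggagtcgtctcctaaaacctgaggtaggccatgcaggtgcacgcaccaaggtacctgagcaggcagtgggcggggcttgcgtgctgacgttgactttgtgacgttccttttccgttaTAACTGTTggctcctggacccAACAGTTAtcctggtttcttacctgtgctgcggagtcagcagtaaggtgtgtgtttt
Pgam2: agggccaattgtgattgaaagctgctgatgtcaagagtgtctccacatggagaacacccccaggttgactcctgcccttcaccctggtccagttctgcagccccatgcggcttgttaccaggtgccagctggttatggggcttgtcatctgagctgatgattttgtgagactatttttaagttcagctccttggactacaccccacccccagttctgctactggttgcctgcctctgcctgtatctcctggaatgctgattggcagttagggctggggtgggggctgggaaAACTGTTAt
In Ldhc 2 matches on opposite strands lie just before the start, and in Pgam2 the match lies after it. In all, 3 of 13 windows of these genes (23.1%, 9 genes) held the core, against 1.11% of the windows of tested genes and 1.45% of all windows. Of the 3 windows, 2 are overlapping windows of Ldhc that share the same AACAGTTA site, so the matches come from 2 genes. The set was also chosen by its lower values in these data, so its share is a description only. Among the genes called lower in both sums, 2.86% of 175 windows held it. In that same set of windows the GC box was in 28.0% against 62.2% of the windows of tested genes, and the TATA box (TATAAA) in 17.7% against 6.83%. The full cAMP response element TGACGTCA was in 4.57% against 3.32%.

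Sperm redox and signalling genes were lower as well. Txndc2, a thioredoxin of the sperm tail, had 56 and 84.5 TPM in WT and 2.01 and 0 in KO (adjusted p = 0.0252, limma), and its relative Txndc8 had 14.1 and 14.8 in WT and was listed at 0 in both KO libraries (adjusted p = 0.0252). Gstt4, a glutathione transferase, fell from 33.1 and 74 to 6.82 and 7.07 (adjusted p = 0.0453). These are 3 of 4 falls among 57 redox genes, of which 18 were apart lower and 4 higher. The mitochondrial thioredoxin Txn2, which all cells use, was held level at 16.9 and 27.9 in WT against 22.1 and 25.7 in KO. In the cAMP and CREM list, 3 of 23 genes fell and none rose. Akap4, an X-linked scaffold of the sperm tail's fibrous sheath and a spermatid marker, fell from 152 and 276 to 18.9 and 9.2 (-3.85 ± 0.61 SE, adjusted p = 0.0316). Akap12, another kinase anchor, fell from 132 and 234 to 36.3 and 19.4 (adjusted p = 0.0487), and Pde1a, a calmodulin-dependent phosphodiesterase, had 15.9 and 20.3 in WT and was listed at 0 in both KO libraries. Prkar1a, a subunit of the kinase that Akap proteins anchor, was held level at 44.2 and 64.5 in WT against 61.8 and 51.1 in KO.

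A cluster of calmodulin-binding IQ motif genes on chromosome 9 was lower. Iqcf1 had 32.5 and 43 TPM in WT and was listed at 0 in both KO libraries (adjusted p = 0.0115, limma), and Iqcf4 had 32 and 31.2 and was also listed at 0 in KO. Iqcf3 fell from 114 and 174 to 15.4 and 12.8 and Iqcf5 from 19.15 and 35.8 to 1.54 and 0. All 4 passed in both sums. Iqcf1 was named by its rank and the other 3 after their values were seen. Secreted and surface proteins of the sperm followed. Crisp2, a cysteine-rich protein of the acrosome and tail and a pachytene marker here, fell from 126 and 135 to 10.8 and 7.87 (-3.69 ± 0.34 SE, adjusted p = 0.0145), and Cst8, a cystatin, from 42.2 and 60.1 to 0 and 2.06. In the list of SPANX, SPINK, lipocalin, cystatin and defensin genes, 5 of 19 fell, all 5 in both sums, and none rose. Spanxn4 was 1 of them, at 18.6 and 24.6 in WT against 0.354 and 2.95 in KO.

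Genes of the sperm tail were often lower, and many of their calls depended on the sum. Axonemes are built of microtubules, dynein motors, radial spokes and many CFAP proteins. Of 36 CFAP, radial spoke and tektin genes, 12 fell and none rose, but only 4 of the 12 did so in both sums, and the median was -1.90 in annotated transcripts and -0.94 in the wider sum. Rsph3a, a radial spoke subunit, had 51.8 and 51 TPM in WT and 10.6 and 8.12 in KO, and Cfap206 had 30.2 and 32.7 against 1.91 and 3.84. Cfap36 had 49.6 and 42.5 against 15.1 and 9.77, and Spag6l, a central pair protein, 26.8 and 33.1 against 3.17 and 5.76. Spag17, another central pair protein, shows the contrary case: 17.3 and 21.4 against 0.0673 and 0.0305 in annotated transcripts, and 19.6 and 20.8 against 37.5 and 10.9 in the wider sum (log2 difference 0.01). Cfap65 had a wider difference of -0.60. Among 13 dynein genes 4 fell, 1 of them in both sums, Dnah8, from 45.5 and 50.4 to 10.5 and 8.09. Dnah17 had 28.9 and 29 in WT and was listed at 0 in both KO libraries, yet its wider difference was -0.98. Intraflagellar transport, which carries cargo along cilia and tails, had 1 fall in 27 genes (3.7%, against 2.9% of all genes), Bbs1. That fall turned to a wider difference of 0.96. Of the 27, 9 were apart lower (33.3%, against 19.7% of all genes) and 0 higher. The list's median was -0.96 in annotated transcripts and -0.29 in the wider sum. Ift20, a member with a role at the Golgi, was held level at 19.5 and 14.5 in WT against 16.3 and 16.4 in KO. Odf2, an outer dense fibre protein and a spermatid marker, fell from 211 and 331 to 38 and 39.4 (adjusted p = 0.0236). These lists moved with the pachytene and spermatid sums, and the part of those cells was not tested.

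**Figure D3:**
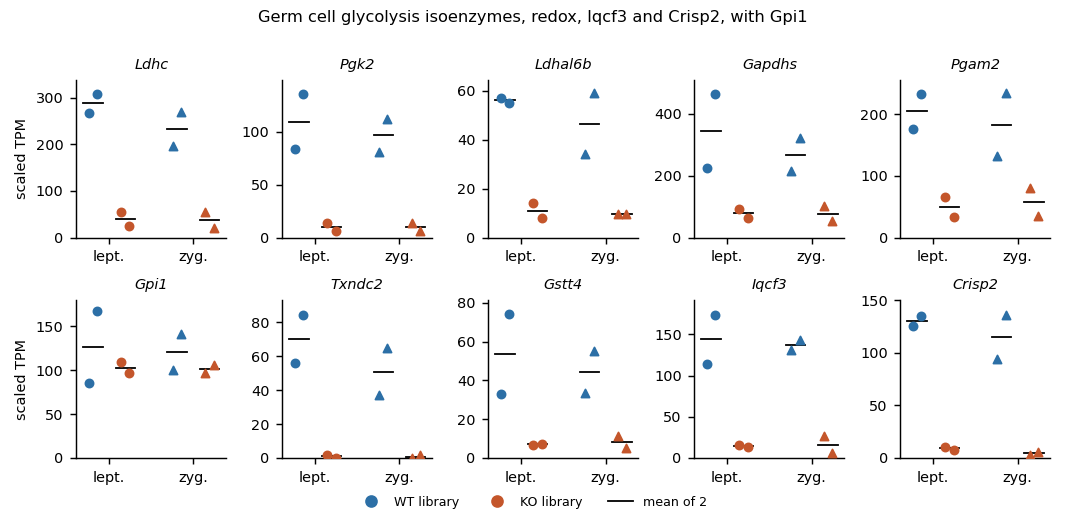
Scaled TPM, on an axis from 0, in each leptotene (circles) and zygotene (triangles) library, 1 panel per gene, with WT in blue, KO in orange and a bar at the mean of 2 libraries. In 9 of the 10 genes both KO leptotene libraries lie below both WT ones, and in Gpi1 they overlap.

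Germ cell genes of less known function took a large share of the falls. Of 57 Tex and Spata genes, 8 fell (5 in both sums), 33 were apart lower and 4 apart higher, against 19.7% and 8.15% of all genes. Spata19, a mitochondrial protein of the tail's midpiece, fell from 63.1 and 128 to 4.33 and 3.01, Spata4 from 83.7 and 82.1 to 11.2 and 3.09 and Spata6 from 86.9 and 124 to 15.7 and 11.3. Tex35 had 16.5 and 38.9 in WT and was listed at 0 in both KO libraries. Tex11, an X-linked recombination gene known to act in early prophase, was held level instead, at 33.9 and 27.5 in WT against 38.6 and 35 in KO. In the Ccdc family 12 of 97 genes fell, but 3 did so in both sums. Of 370 genes with Rik names of testis clone series, 56 fell (31 in both sums), none rose, and 241 were apart lower against 3 higher. Of 234 lincRNA genes tested, 15 fell and 100 were apart lower (42.7%), and of 255 antisense genes 17 fell and 102 were apart lower (40.0%). The files' headers show no strand setting, so antisense genes are uncertain. In all, 61 of the 190 genes called lower in both sums had no name beyond a Gm number, a Rik or a clone label. Those 190 had a median mean of 31.3 TPM in WT and 2.56 in KO.

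In the ADAM and RING finger families some genes fell while other members were held level. Adam2, the beta chain of the sperm surface protein fertilin and a pachytene marker, had 33 and 39.1 TPM in WT and was listed at 0 in both KO libraries, and Adam32 had 32.4 and 42.8 against 0 and 4.22. They were 2 of 3 falls among 21 ADAM and ADAMTS genes, of which 17 were apart lower. The broadly expressed sheddase Adam17 was held level at 23.3 and 20.2 in WT against 15.8 and 24.4 in KO. Of 101 RING finger genes, 7 fell (2 in both sums), none rose and 17 were held level. Their share apart lower, 20.8%, was near the 19.7% of all genes. Trim11 had 15 and 17.8 TPM in WT and Trim69 12.1 and 10.7, and both were listed at 0 in both KO libraries, with wider differences of -0.70 and -1.38 that did not pass. Of 18 serine proteases 1 fell, Htra1, from 6.12 and 21 to 0.0499 and 0.005, and 14 were apart lower. Trim28, a co-repressor used in many cells, was held level at 146 and 172 in WT against 209 and 202 in KO. Of 15 chaperonin and prefoldin genes 1 fell, Cct6b, the testis form of a CCT subunit, from 27 and 38.5 to 3.75 and 0. Cct3, a subunit of the ubiquitous complex, was held level at 138 and 111 in WT against 162 and 157 in KO.

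The remaining large falls had varied roles. Tcte3, a dynein light chain, fell from 145 and 119 to 0 and 8.56 TPM (adjusted p = 0.0444, limma). Nt5c1b, a nucleotidase, fell from 60.5 and 133 to 5.42 and 0. Mroh2b and Dnajc5b, a J-domain co-chaperone, were listed at 0 in both KO libraries against WT levels of 39.8 and 52.7 for the first and 24.9 and 45.9 for the second, as was Pmfbp1, which joins the sperm head to the tail, against 38 and 56.7. A distinct set was somatic. Ctgf, a matrix growth factor, fell from 37.4 and 142 to 0.117 and 2.11, the matrix protein Mgp from 39 and 81.4 to 1.14 and 4.02 and the macrophage gene Aif1 from 73.4 and 97.5 to 13.1 and 13.3. Adamts5, a matrix protease, had 27.3 and 40.0 in WT and was listed at 0 in both KO libraries, and the growth factor receptor Pdgfra had 15 and 33.3 against 0.221 and 0.124. Neither of these 2 passed in the wider sum. These moved with the stromal and macrophage sums given above, and the part of those cells was not tested. The summed level of Sertoli markers overlapped between genotypes, at 222.9 and 445.1 in WT against 375.6 and 292.1 in KO. Meg3, an imprinted non-coding RNA, fell from 22.8 and 16.6 to 0.407 and 1.76. At zygotene its difference was -0.75.

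Falls were also counted on the X chromosome. Of 489 X-linked genes tested, 4.7% were called lower, against 2.84% of the 13577 other genes. In both sums 20 X-linked genes fell (4.09%), against 1.25% of the others. A list of X-linked germ cell genes, which holds multicopy genes and also Tex11, was mixed. Of 45 tested 3 fell, Cypt3, Cypt12 and Ctag2, 10 were apart lower and 5 apart higher, and the median was 0.05. Cypt3 had 18.7 and 40.8 TPM in WT and 3.31 and 2.12 in KO, and Cypt12 41.6 and 90.5 in WT against 8.18 and 2.54 in KO. Reads may be split among near-identical copies of the list's multicopy genes.

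In several housekeeping lists a larger share of genes was held level than among all genes, though most members of each list were neither called nor held level. With 2 libraries a group the median 95% interval reached 1.34 on either side of the log2 difference, so few genes were held within 2-fold. They were 840 of 14066 (5.97%), with a median of 29.2 TPM against 6.99 for all genes. This count depends on the filter and the pseudocount, as given at the end. The most abundant was Eef2, a translation elongation factor, at 432 and 566 TPM in WT and 559.6 and 400.2 in KO. Hspa5, the chaperone of the endoplasmic reticulum, had 431 and 302 in WT against 303 and 433 in KO, a difference of 0.01 with an interval of -0.67 to 0.68. The other 8 most abundant were Calr, Sptan1, Tubb4b, Rpl13a, Pabpc1, Rpl4, Actg1 and Hsp90b1, which serve protein folding, the cytoskeleton and translation. In the unfolded protein response list no gene of 21 passed, 7 were held level and 1 was apart lower. No gene of 32 lysosomal and vacuolar ATPase genes passed, 4 were apart lower and 11 were held level, among them Lamp1 at 90.9 and 111 in WT against 101 and 97.9 in KO, with an interval of -0.66 to 0.63. Ribosomal proteins had 20 of 86 held level, 2 apart higher and 4 lower. Cleavage and polyadenylation factors had 7 of 20 held level, 1 apart higher and 1 lower, nucleoporins 7 of 31 with 1 higher and 3 lower, and importins and exportins 8 of 34 with none apart. None of these genes passed the test. Kpna2, an importin abundant in germ cells, had 86.3 and 63.6 TPM in WT and 84.8 and 63.5 in KO, and Ran, the GTPase that drives import, was held level too. Of 109 SNARE and coat genes none passed, 16 were held level, 7 were apart higher and 9 lower. Among RNA helicases Ddx5 was held level, and in the piRNA list Piwil2, an Argonaute protein of early germ cells, was the 1 gene held level, at 32.2 and 39.2 in WT against 36.9 and 49.3 in KO. Rec8, the meiotic cohesin subunit, was held level at 19.06 and 25.1 in WT against 22.9 and 21.4 in KO. In zygotene, 98.7% of the 840 genes differed by less than 2-fold between genotypes, against 70.8% of all genes. The level genes were more abundant and the zygotene scatter entered their intervals, so all genes are no even comparator here.

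**Figure D4:**
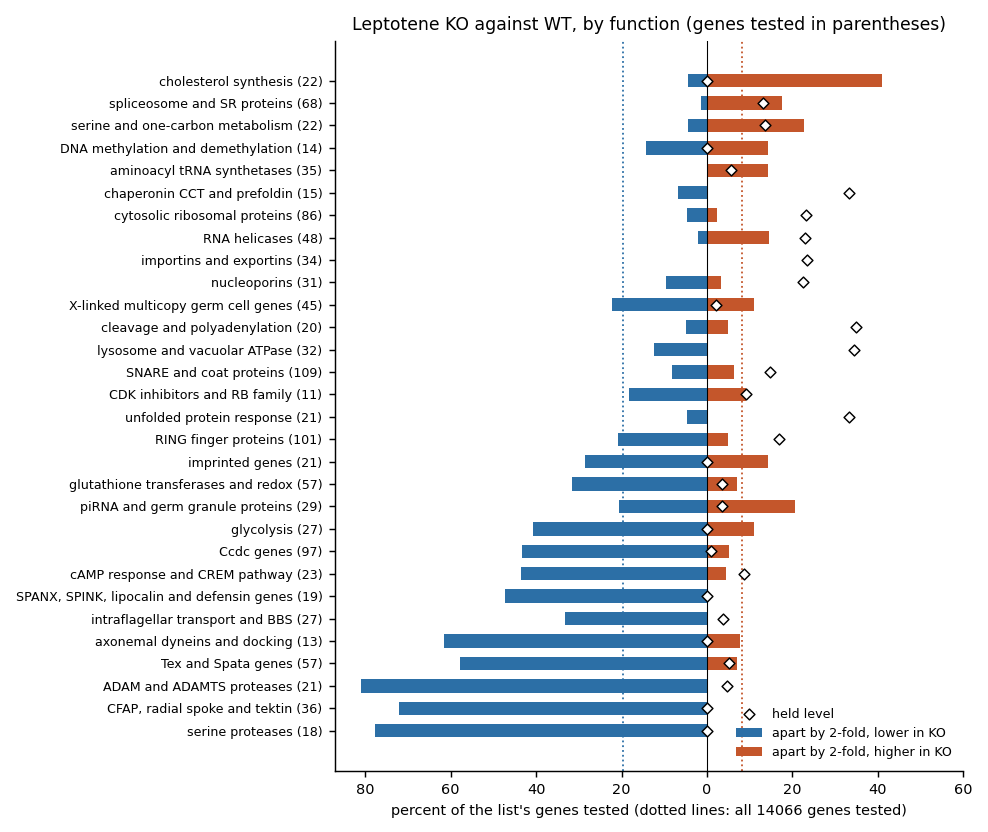
Percent of each list's tested genes that were apart higher (orange bars, right), apart lower (blue bars, left) or held level (diamonds), with lists ordered by their median difference and the number tested in parentheses. Dotted lines mark the shares of all genes, 8.15% higher and 19.7% lower, and the sperm lists reach far past the second while import, lysosome and polyadenylation lists have their diamonds on the right.

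Isoform use gave no call. Of 9152 annotated transcripts of 4121 genes, none had a changed share in KO by limma (smallest adjusted p = 0.399), and 771 passed at an unadjusted p under 0.05. With 1 library left out at a time the count was at most 2. Within a genotype, the 2 leptotene libraries shared their most abundant transcript in 84.5% of genes in WT and 82.1% in KO. As a description, 115 genes (2.79% of 4121) had 1 transcript on top in both WT libraries and another on top in both KO libraries. In 60 of them both transcripts were coding with different coding lengths, in 23 one had no coding sequence, and 16 were held level as genes. The same exchange was seen at zygotene in 19 of the 115 (16.5%), where 104 genes (2.52%) exchanged their top transcript in any way.

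A few exchanges show their kind, though none of these shares passed the test. Egln2, an oxygen-sensing prolyl hydroxylase, had 79.6% and 90.4% of its annotated TPM in transcript Egln2-202 in WT leptotene and 39.7% and 42.3% in KO. At zygotene the shares were 83.2% and 90.2% in WT and 29.0% and 27.6% in KO. The transcripts that exchange places, at chr7:27158988-27166413 and chr7:27158658-27166802, both encode 419 codons and differ in their outer ends. Psma6, an alpha subunit of the proteasome, had 49.6% and 66.4% in the form of 227 codons (Psma6-204) in WT and 5.2% and 7.4% in KO, where the form of 246 codons (Psma6-201) had 94.5% and 92.1%. Dmrtb1, a transcription factor of the entry into meiosis, had 66.6% and 80.9% in Dmrtb1-203, of 203 codons, in WT and 21% and 30.6% in KO, where the form of 359 codons led. Dmrtb1 made the same exchange at zygotene. Psma6 did not, since the form of 246 codons was on top in both genotypes there, at 63.2% and 61.3% in WT against 88.7% and 95.7% in KO. Eif4h, a helper of the translation helicase, exchanged a form of 228 codons (51.7% and 51.3% in WT, 23.5% and 8.0% in KO) for one of 248 codons while the gene was held level. Lipe, hormone-sensitive lipase, had 68.4% and 92.8% in its form of 1072 codons in WT and 7.5% and 22.4% in KO. Rcc1, the exchange factor of Ran, swapped forms of 421 codons each. The rule also named Odf2, Hnrnpa2b1 and Elof1. Of these Elof1 made the same exchange at zygotene, and Odf2 and Hnrnpa2b1 did not. Dmrtb1, Eif4h, Lipe and Rcc1 were chosen after their values were seen.

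**Figure D5:**
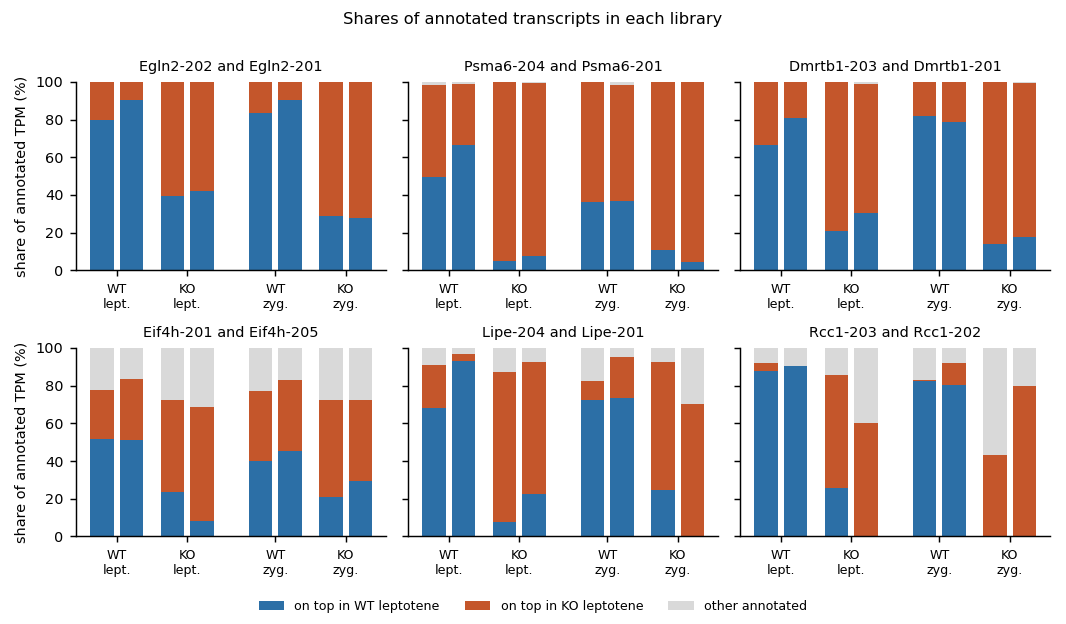
Each stacked bar is 1 leptotene or zygotene library and divides a gene's annotated TPM, in percent, into the transcript on top in WT leptotene (blue), the one on top in KO leptotene (orange) and the others (grey), for 6 genes. In Egln2 the blue share is 79.6% and 90.4% in the WT leptotene libraries and 39.7% and 42.3% in the KO ones.

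The zygotene libraries, which are other samples, moved largely the same way. Their scatter entered the fit behind the calls, however, which favours genes with steady zygotene values. All genes are therefore no even comparator for the shares that follow. Of the 408 genes called lower at leptotene, 348 (85.3%) were apart lower at zygotene, against 16.7% of all genes, and of the 51 called higher 30 (58.8%) were apart higher, against 7.1%. Among the calls made in both sums the counts were 178 of 190 and 15 of 19. A test of the difference between stages, the interaction in the same fit, called 2 genes (0.0142%), Hist1h2bc and mt-Ta. The difference in Meg3 was smaller in size at zygotene, but the change between stages did not pass (interaction adjusted p of 1.0, limma).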

How the data were processed

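RNA of FACS-sorted leptotene and zygotene spermatocytes of Bend2 WT and KO mice was sequenced from directional libraries, per the labels' protocols, with 2 libraries in each of the 4 groups. HISAT2, DESeq2 and the build mm10 are named in the submitters' processing notes, without versions. The authors deposited StringTie 2.1.2 assemblies, 1 for each library, guided by Ensembl annotation of GRCm38, per the file headers. No header shows a strand option or a run limited to annotated transcripts, so a transcript carries a gene name only where it matched the annotation. The deposited TPM and FPKM of each transcript and its coverage signal are the authors' values, normalized within a library.

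From these, TPM was summed over the transcripts of a gene name, missing genes taking 0, and libraries were scaled by median-of-ratios factors. TPM are not counts, so log2(scaled TPM + 1) was tested with limma 3.58.1 in R 4.3.3 with 1 mean per group over all 8 libraries and an intensity trend, and p-values were adjusted over all genes by Benjamini-Hochberg. Fold changes on this scale understate those of low genes. Tested genes reached a summed TPM of 1 in 2 or more leptotene libraries. A gene was called at an adjusted p under 0.05, and held level where its 95% interval lay within 2-fold. A wider sum added unannotated transcripts on the same strand with at least 50% of their length in the exons of a gene in GENCODE's annotation of that build. Transcripts were tested by limma on the log2 ratio of a transcript to its gene's other annotated transcripts.

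Genes named in the text were the 12 largest called rises and falls with an official symbol outside the spermatid, pachytene, S phase and histone lists whose libraries were apart in both sums, up to 2 called or most abundant members of a described list, the 10 most abundant level genes, and 6 transcripts. Others are named where said as chosen after their values were seen, as were Cad, Cul7, Mcm2, Hist1h3h, Insig1, Fdps, Mvd, Pmvk, Gpi1, Gapdhs, Pgam2, Ldhal6b, Gstt4, Akap12, Spanxn4, Zbtb16, Kit, Crabp1, the tail genes that passed in both sums, Spata4, Spata6, Adam32 and Odf2. Results for a few genes that this rule names are not reported here. Of 122 gene lists, 58 had no gene called. The lists described were chosen, and the members, lists and rules were set, with earlier results of these data known. Promoter windows came from RefSeq (GRCm38.p6), and 8875 of the 14066 genes matched by symbol. The fit was tested on simulated data. Alternatives covered the pseudocount, the filter, the scaling, FPKM, the libraries fitted, a replicate block and each library left out. The series' text speaks of 3 replications, and 2 libraries in each group were analysed here.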

Additional observations from a re-analysis of the deposited data

Results flagged for a closer look

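In 2 genes the difference between genotypes itself differed between leptotene and zygotene, by the interaction contrast of the limma fit over all genes. The histone gene Hist1h2bc was lower in KO at leptotene in annotated transcripts, with 98.9 and 46.8 TPM in WT while both KO libraries list it at 0. It was higher at zygotene, with 30.2 and 19.8 in WT against 128 and 102 in KO. The leptotene difference minus the zygotene one was -8.29 on the log2 scale (adjusted p = 0.0159). With unannotated transcripts of the locus added, its leptotene difference was 2.01, so the direction at leptotene depends on the sum.

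The mitochondrial tRNA gene mt-Ta had 0 listed in WT leptotene, against 33.5 and 34.7 TPM in KO. At zygotene the order was reversed, with 35.3 and 30.8 in WT and 0 in both KO libraries. The difference between the stages was 10.22 (adjusted p = 0.00883). Groups of 2 libraries are too small for a test of single outlying libraries.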

How the results depend on the processing

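The 459 calls at leptotene became 91 with no filter on low values, 197 with a filter over all 8 libraries, 298 with quantile normalization, 0 when only the leptotene libraries were fitted (2740 at an unadjusted p under 0.05), and 749 with the single-exon share as a covariate. With the replicate number as a block there was 1 call (2735 unadjusted), but the numbers do not pair the samples: deviations of same-numbered WT and KO leptotene libraries correlated at -0.093. With 1 library left out at a time the count ran from 0 to 430. In the wider sum 435 of the 459 calls kept their direction. Under the other alternatives the calls that had a value kept it, which were 365 with a TPM of at least 5, 192 without either WT leptotene library, 432 without either KO leptotene library and 459 elsewhere. Since no called gene had overlapping libraries, leaving one out could not turn a direction. The 3917 genes apart by 2-fold became 1746 with a pseudocount of 5 and 2320 with a TPM of at least 5. The 840 level genes became 4955 with a pseudocount of 5, 6274 with no filter, 2050 from FPKM, 2734 in the wider sum, 497 from leptotene libraries alone, 544 with the replicate block and 504 without the intensity trend, and 240 to 741 with 1 library left out. Genes called at leptotene and apart in the same direction at zygotene numbered 49 with no filter, 167 with the filter over 8 libraries, 243 with quantile normalization, 0 with the replicate block, 616 with the covariate, and 10 to 368 with 1 library left out where any call was left. Transcripts with a changed share numbered 0 to 2 when 1 library was left out. Of the 148 named genes, 3 changed sign, each in the wider sum: Bbs1 (0.96), Hist1h2bc (2.01) and Spag17 (0.01). Quantile normalization moved the median of all genes from -0.077 to 0.171, and the share of higher calls from 11.1% to 18.8%. The cause of these changes was not tested, except that fewer libraries leave fewer degrees of freedom.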
